A study of Mus musculus with 24 samples.

Results

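The genes of the translation initiation factors were followed in mouse CD4+ T cells during the first day of activation. Members were all protein-coding genes of the count table whose symbol starts with Eif1, Eif2, Eif3, Eif4, Eif5 or Eif6, without the Eif2ak genes, which encode kinases that act on eIF2. This gave 51 of the 54446 gene identifiers in the table, of which 21918 were protein coding. The rule used names only and no measured value. After the filter on low counts 48 of the 51 were tested. The other 3 were Eif4e1b, with 0 counts in all 24 libraries, the Y-linked Eif2s3y, with 3 counts in all, and Eif3j2, with 92.

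Splenic CD4+ T cells came from wild-type (WT) and Aim2-/- mice, both on the C57BL6 background, and were isolated by immunomagnetic negative selection according to the methods of the study. AIM2 is a cytosolic sensor of double-stranded DNA, and the study asked what its absence changes in CD4+ T cells. Each mouse gave 4 libraries, 1 from unstimulated cells (0 h) and 1 each from cells kept for 3, 6 or 24 h with anti-CD3 and anti-CD28 antibodies, which stand in for antigen and costimulation. There were 3 mice per genotype, WT mice 1, 3 and 4 and Aim2-/- mice 1, 2 and 4, which gave 8 groups of 3 libraries. The labels give no age and no detail of the Aim2 allele, and all groups shared the culture medium. Gene positions are those of GENCODE M21 on GRCm38. In every sentence below, the values of a group are in the order of these mouse numbers.

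Library totals ranged from 19715161 to 21627018 counts, so that 3 counts, taken as the floor of detection, corresponded to 0.129 to 0.155 CPM (counts scaled per 1000000). The targeted gene went against 1 label. The labels do not say which part of Aim2 is deleted, so that reads from the rest of the gene may remain. At 0 h Aim2 stood at 21.5, 75 and 67.5 CPM in the mice labelled WT 1, 3 and 4, whereas Aim2-/- libraries had 15.7, 20.1 and 19.0 CPM, and at 24 h at 5.57, 34.0 and 38.6 CPM against 6.55, 7.15 and 5.28 CPM. The mouse labelled WT 1 thus had Aim2 levels near those of the Aim2-/- mice, and the main counts are also given without it. The 6 CD4 T cell markers summed to 4043 to 4226 CPM in WT and 4043 to 4297 CPM in Aim2-/- cells at 0 h. Markers of myeloid cells summed to 35.9 to 59.4 CPM in WT and 106 to 347 CPM in Aim2-/- libraries at 0 h, and B cell markers to 11 to 14.99 against 17.7 to 49.5 CPM.

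Initiation begins when eIF2, in its GTP form, brings the initiator tRNA to the small ribosomal subunit together with eIF1, eIF1A, eIF3 and eIF5. The resulting complex is loaded onto the mRNA by eIF4F, which is made of the cap-binding protein eIF4E, the scaffold eIF4G and the helicase eIF4A, and scans to a start codon, where eIF5B joins the large subunit. After each round eIF2 is recharged with GTP by eIF2B. Resting T cells make little protein, and their activation is known for a large rise in protein synthesis and in cell size.

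Promoter windows, from 250 bases before to 50 bases after an annotated start site, were available for 39 members from RefSeq (GRCm38.p6). They were searched on both strands for CACGTG, the E-box that MYC and MAX bind, which reads the same on both strands. The search also covered CCGGAAG, a core bound by ETS factors, and TGATGNAA, the core of the element that ATF4 binds with C/EBP partners. CACGTG occurred in the windows of 10 of the 39 members (25.6%), against 9.18% of 16514 coding genes and 7.15% of all 32851 windows. These 10 were Eif1b, Eif3a, Eif3f, Eif3k, Eif4a1, Eif4e, Eif4g1, Eif4h, Eif5a and Eif5a2. CCGGAAG occurred in 15 members (38.5%), against 13.4% of coding genes and 8.86% of all windows. TGATGNAA occurred in 1, Eif2s3x (2.56%), against 4% and 3.97%. The 16514 coding genes were not limited to genes tested in these cells, whereas most members were tested. The share of each motif among tested genes was not counted. The lines below show upstream stretches around CACGTG, in capitals, 5′ to 3′ in the direction of the gene, from members of the cap-binding complex and its partners, from Eif5a, the member with the highest level at 24 h, and from Eif3f, which was not called at 24 h.
Eif4e, chr3:138527178-138527235, plus strand: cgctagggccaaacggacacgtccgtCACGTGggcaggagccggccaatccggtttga
Eif4g1, chr16:20672647-20672704, plus strand: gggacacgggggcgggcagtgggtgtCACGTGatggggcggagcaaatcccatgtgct
Eif4a1, chr11:69672581-69672638, minus strand: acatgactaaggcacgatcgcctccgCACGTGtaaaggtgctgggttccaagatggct
Eif4h, chr5:134639474-134639531, minus strand: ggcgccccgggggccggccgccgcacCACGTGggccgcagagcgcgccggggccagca
Eif5a, chr11:69920777-69920834, minus strand: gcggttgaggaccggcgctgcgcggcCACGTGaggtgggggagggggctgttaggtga
Eif3f, chr7:108934321-108934378, plus strand: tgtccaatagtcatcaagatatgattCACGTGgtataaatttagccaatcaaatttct
The printed E-box lay 64 bases before the RefSeq start site of the window in Eif4e, 54 in Eif4g1 and 189 in Eif4a1. The distance was 96 bases in Eif4h, 178 in Eif5a and 68 in Eif3f. The Eif4e window also held CACGTG 228 bases before the start site. In the Eif4g1 window it also occurred at position 16, counted from the first transcribed base. In Eif4e, Eif4g1 and Eif5a the stretch lies inside the gene as placed by GENCODE M21, which begins further upstream. Eif5a also had windows of other start sites upstream of the printed stretch. The median log2 fold change at 24 h in WT cells was 1.21 for the 10 members with CACGTG and 1.28 for the 28 tested members whose window lacked it, and 1.27 for the 15 with CCGGAAG against 1.30 for the 23 without. A match describes letters only and says nothing of binding. The 12 members with no window were Eif1a, Eif2b3, Eif3e, Eif3h, Eif3i, Eif3j2, Eif4e1b, Eif4e3, Eif4ebp1, Eif4ebp3, Eif4g2 and Eif6.

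The first question was how the initiation factors responded to stimulation. In WT cells 18 of the 48 tested members rose and 2 fell at 3 h, 34 rose and 3 fell at 6 h, and 41 rose and 3 fell at 24 h (edgeR quasi-likelihood test, adjusted p under 0.05). Among all 15325 genes tested, 16.2% rose and 16.4% fell at 3 h, 26.4% and 24.8% at 6 h, and 36.6% and 34.8% at 24 h. In Aim2-/- cells 9 members rose and 3 fell at 3 h, 28 and 3 at 6 h, and 38 and 2 at 24 h, against 16.1% and 14.6%, 28.5% and 22.7%, and 36.8% and 33.5% of all genes. The median log2 fold change of the members was 0.24, 0.69 and 1.28 at 3, 6 and 24 h in WT cells and 0.18, 0.39 and 1.04 in Aim2-/- cells, whereas the median of all genes lay between -0.01 and 0.08 in these 6 comparisons. At 24 h 29 members in WT and 25 in Aim2-/- cells had risen by more than 1 on the log2 scale, a count not made over all genes. With each mouse as a block the counts at 3 h were 25 higher and 7 lower in WT cells and 16 higher and 6 lower in Aim2-/- cells. Without the mouse labelled WT 1, 9 members rose and 2 fell at 3 h in WT cells, 30 rose and 2 fell at 6 h and 41 rose and 2 fell at 24 h. Calls at 3 h were the least stable, and 5 of 20 in WT and 3 of 12 in Aim2-/- cells were made under every alternative processing and with every mouse left out, against 28 of 37 and 26 of 31 at 6 h and 39 of 44 and 38 of 40 at 24 h. Scaled to library totals alone, which moved the median of all genes by 0.11 in WT and 0.12 in Aim2-/- cells at 3 h, 27 members rose and 1 fell in WT and 21 rose and 0 fell in Aim2-/- cells at that time. The counts under these other fits stand without the share of all genes called and describe stability only.

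**Figure D1:**
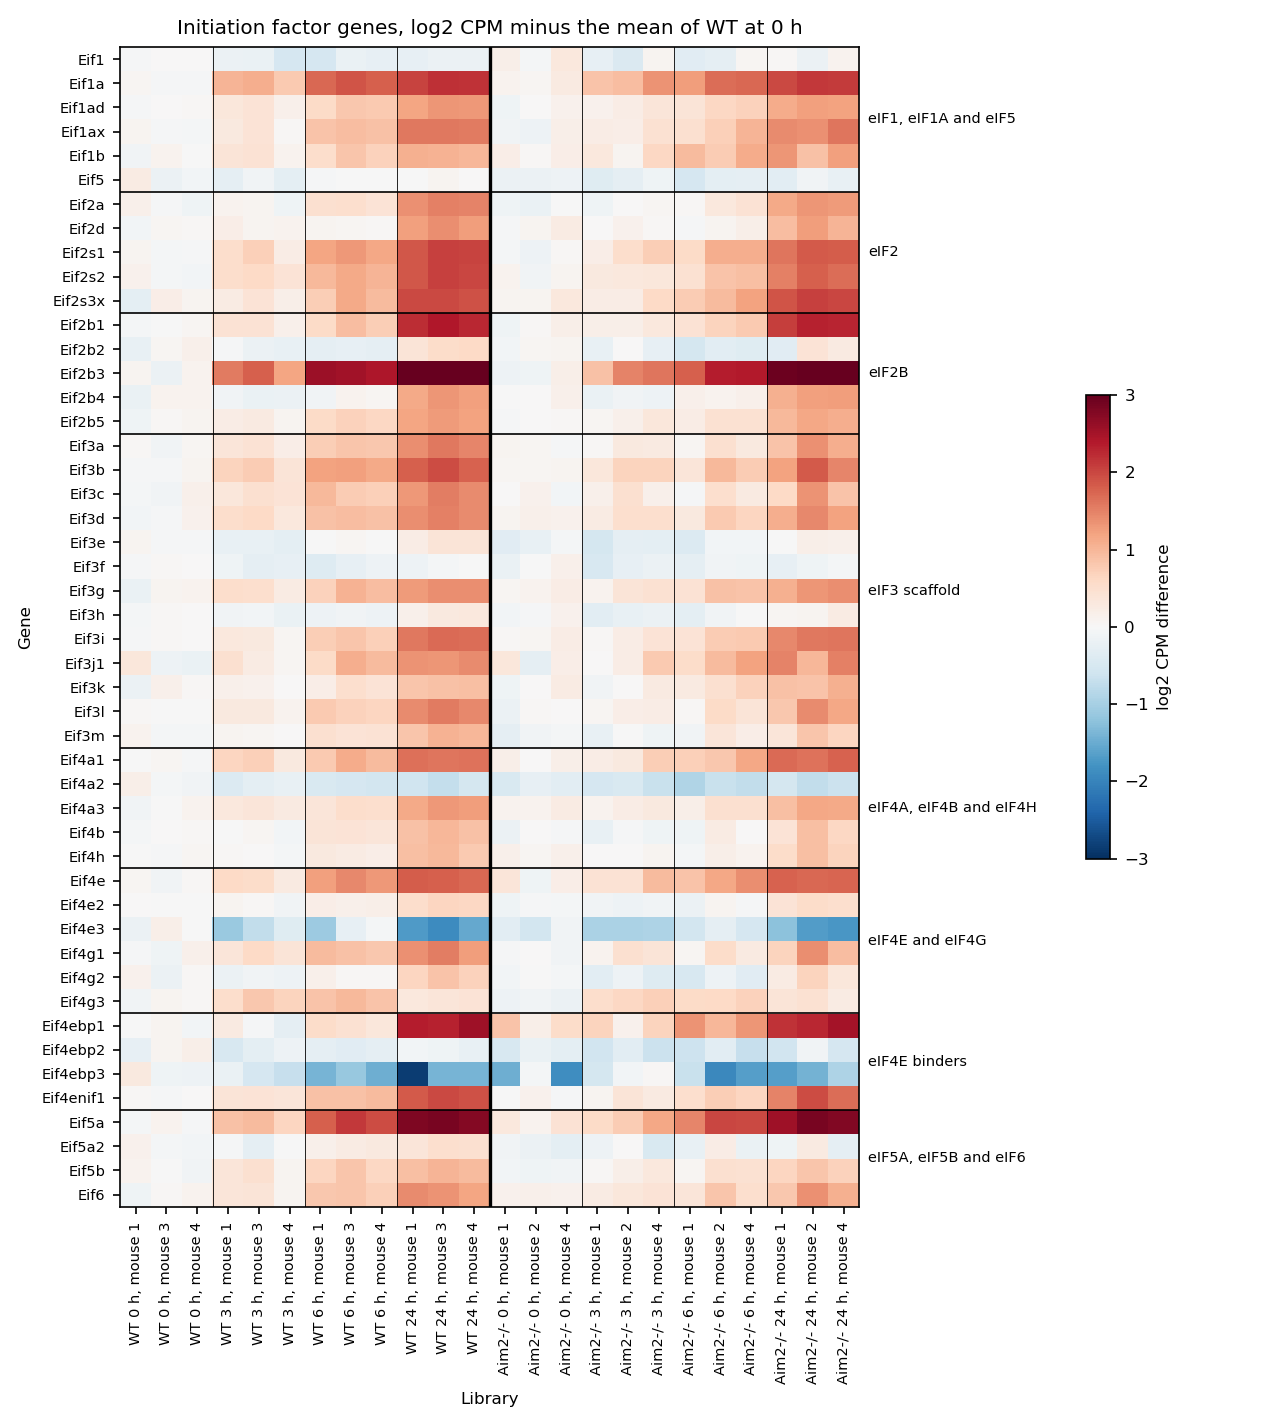
Log2 CPM of the 48 tested initiation factor genes (rows, by role) in the 24 libraries (columns), each minus the mean of WT cells at 0 h. Red is higher and blue lower on a scale from -3 to 3, and most rows darken towards 24 h in both genotypes, with Eif4e3, Eif4a2 and Eif4ebp3 as the bluest rows.

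As a share of each library, all member counts together made up 0.943, 0.894 and 0.923% in WT cells at 0 h and 1.87, 1.97 and 1.89% at 24 h. In Aim2-/- cells the share was 0.905, 0.910 and 0.942% at 0 h and 1.59, 1.88 and 1.74% at 24 h. The share at 24 h exceeded that at 0 h in every mouse, and at 24 h only Aim2-/- mouse 2 reached the WT range. A share of a library does not show the amount of RNA per cell, and in bulk RNA fewer cells of a type and less RNA per cell cannot be told apart. The highest group mean came at 24 h for 41 of 48 members in WT and 40 in Aim2-/- cells, and these 40 peaked at 24 h in both. Peak times of all genes were not counted.

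Apart from Eif1ad, which only shares a domain with eIF1A, members of the start codon group act on scanning and start codon choice. Of its 6 tested members 4 rose at 24 h in both genotypes, and 0 fell. Eif1a, which encodes the scanning factor eIF1A, rose the most. In WT cells Eif1a stood at 43.5, 40.99 and 40.8 CPM at 0 h, 84.1, 89.2 and 72.2 CPM at 3 h, 138, 155 and 144 CPM at 6 h and 171, 191 and 186 CPM at 24 h. Eif1a in Aim2-/- cells stood at 44.99, 43.4 and 50.6 CPM at 0 h, 75.7, 78.96 and 107 CPM at 3 h, 100.4, 134 and 138 CPM at 6 h and 166, 181 and 179 CPM at 24 h. Each later time lay above 0 h without overlap in both genotypes, and the rise was already large at 3 h in WT cells (log2 fold change 0.97, SE 0.13, adjusted p = 4.6e-06).
Its X-linked paralog Eif1ax encodes nearly the same protein. WT libraries held Eif1ax at 69.4, 63.99 and 62.9 CPM at 0 h, 80.4, 86.4 and 66.8 CPM at 3 h, 118, 124 and 119 CPM at 6 h and 196, 196 and 193 CPM at 24 h. Aim2-/- libraries held Eif1ax at 60.5, 59.04 and 74.2 CPM at 0 h, 75.96, 75.4 and 89.1 CPM at 3 h, 91.7, 107 and 132 CPM at 6 h and 175, 169 and 199 CPM at 24 h. All 24 h values lay above all earlier ones in both genotypes (log2 fold change 1.57, SE 0.12, adjusted p = 1.8e-10 in WT).
Eif1, which encodes eIF1, the guard against initiation at poor start codons, had the highest level per kb of this group in WT cells at 0 h. WT values of Eif1 were 288, 299.7 and 298 CPM at 0 h, 262, 257 and 209 CPM at 3 h, 207, 257 and 248 CPM at 6 h and 249, 261 and 262 CPM at 24 h. Aim2-/- values of Eif1 were 334, 282 and 369 CPM at 0 h, 248, 220.3 and 315 CPM at 3 h, 234, 244 and 309 CPM at 6 h and 302, 262 and 316 CPM at 24 h. In WT cells every stimulated value lay below every 0 h value, and no comparison of Eif1 in WT cells passed the test (log2 fold change -0.20, SE 0.13, adjusted p = 0.195), while in Aim2-/- cells it was called lower at 6 h only (log2 fold change -0.32, with an adjusted p just under the threshold of 0.05). That call was lost with library totals, with only the libraries compared and without the mouse labelled WT 1 or Aim2-/- mouse 1, with an adjusted p of up to 0.287.
Its paralog Eif1b went the other way. For Eif1b the WT libraries gave 34.9, 40.4 and 37.4 CPM at 0 h, 49.2, 51.05 and 40.6 CPM at 3 h, 54.2, 66.9 and 60.7 CPM at 6 h and 78.5, 77.9 and 74.3 CPM at 24 h. For Eif1b the Aim2-/- libraries gave 42.8, 38.2 and 42.9 CPM at 0 h, 47.03, 39.99 and 57.3 CPM at 3 h, 72.2, 63.3 and 80.8 CPM at 6 h and 94.7, 69.02 and 87.7 CPM at 24 h. The 24 h libraries stood apart from those at 0 h in both genotypes (log2 fold change 1.03, SE 0.13, adjusted p = 5.5e-07 in WT). Eif1ad, an eIF1A domain gene, rose by 1.27 and 1.18 (log2) in WT and Aim2-/- cells at 24 h, and Eif5, the GTPase activator of eIF2, had log2 fold changes of 0.02 and -0.04 and was not called.

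All 5 tested genes of eIF2 and the other initiator tRNA carriers rose at 24 h in both genotypes, with a median log2 fold change of 1.95 in WT and 1.63 in Aim2-/- cells, the highest median of any role group in both. The 3 subunit genes had nearly equal rises in WT cells, 1.99 for Eif2s1 (the alpha subunit, the target of the stress kinases), 1.97 for Eif2s2 (beta) and 1.95 for Eif2s3x (gamma, which holds the tRNA). Eif2s3x was the lowest of the 3 per kb in every library. WT mice had Eif2s3x at 12.1, 17.2 and 15.8 CPM at 0 h, 17.5, 19.6 and 16.7 CPM at 3 h, 24.8, 32.9 and 28.9 CPM at 6 h and 59.1, 59.1 and 55.8 CPM at 24 h. Aim2-/- mice had Eif2s3x at 15.7, 15.6 and 18.5 CPM at 0 h, 17.3, 17.3 and 22.6 CPM at 3 h, 25.4, 28.8 and 34.6 CPM at 6 h and 55.5, 61.8 and 59.8 CPM at 24 h. The 24 h libraries were well above all others, with no overlap, while its Y-linked copy Eif2s3y stayed at 0 to 2 counts per library. Xist, a transcript of female cells, stood at 269 to 747 CPM across the libraries, the pattern of female mice. Whether Eif2s3y is silent in CD4+ T cells can therefore not be read from these counts.
Eif2s1 had the highest level per kb of the group in WT cells at 0 h. WT mice had Eif2s1 at 74.3, 67.7 and 68.6 CPM at 0 h, 101, 115 and 82.5 CPM at 3 h, 160.2, 174 and 156 CPM at 6 h and 256, 292 and 286 CPM at 24 h. Aim2-/- mice had Eif2s1 at 67.5, 63.5 and 71.3 CPM at 0 h, 80.9, 101 and 117 CPM at 3 h, 104, 149.6 and 150.5 CPM at 6 h and 213, 251 and 248 CPM at 24 h. Eif2s1 was called higher at every time in both genotypes, the 3 h calls being lost without WT mouse 3 (adjusted p = 0.216) and without Aim2-/- mouse 2 or 4, and its values at 6 h were above those at 0 h in all 6 mice. Eif2a and Eif2d, which encode alternative carriers of the initiator tRNA, rose by 24 h. Eif2d had log2 fold changes of 0.13 and 0.06 at 3 and 6 h in WT cells, neither called, and 1.30 at 24 h.

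eIF2B, the exchange factor of eIF2, has 5 subunits, of which Eif2b3 (gamma) and Eif2b5 (epsilon) form the catalytic part and Eif2b1 (alpha), Eif2b2 (beta) and Eif2b4 (delta) the regulatory part. Eif2b3 showed the largest rise of all 48 members at 3, 6 and 24 h in both genotypes. In WT cells Eif2b3 (chr4:117019402-117087306, plus strand) stood at 10.2, 8.48 and 10.2 CPM at 0 h, 28.3, 33.4 and 21.9 CPM at 3 h, 57.2, 55.01 and 52 CPM at 6 h and 81.6, 91.7 and 91.4 CPM at 24 h. Eif2b3 in Aim2-/- cells stood at 8.62, 8.81 and 10.9 CPM at 0 h, 17.6, 26.9 and 29.2 CPM at 3 h, 33.2, 49.7 and 50.1 CPM at 6 h and 74.5, 86.2 and 79.1 CPM at 24 h. Every stimulated library exceeded every 0 h library, and the 24 h values were the highest of all (log2 fold change 3.20, SE 0.19, adjusted p = 4.5e-12 in WT).
Eif2b1 was the only other subunit above a log2 fold change of 2 at 24 h. WT values of Eif2b1 ran 32.3, 33.2 and 34.8 CPM at 0 h, 45.5, 45.4 and 37.4 CPM at 3 h, 49.7, 63.3 and 55.9 CPM at 6 h and 155, 177 and 162 CPM at 24 h. Aim2-/- values of Eif2b1 ran 30.4, 34.3 and 37.5 CPM at 0 h, 37.5, 37.9 and 41.9 CPM at 3 h, 45.2, 53.1 and 58.1 CPM at 6 h and 140.2, 166 and 164 CPM at 24 h. Most of its rise came between 6 and 24 h, with no overlap of the 24 h libraries with any other (log2 fold change 2.30, SE 0.11, adjusted p = 3.5e-13 in WT).
Eif2b2 had, in WT cells, the highest mean of the subunits per kb of the longest transcript at 0 h and the smallest fold change at 24 h. WT mice had Eif2b2 at 56.8, 67.97 and 73.7 CPM at 0 h, 64.2, 58.04 and 56.8 CPM at 3 h, 54.1, 55.1 and 54.7 CPM at 6 h and 85.98, 96.5 and 100 CPM at 24 h. Aim2-/- mice had Eif2b2 at 61.99, 68.5 and 69.7 CPM at 0 h, 56.4, 66.2 and 55.8 CPM at 3 h, 45.3, 52.5 and 51.4 CPM at 6 h and 52.1, 86.8 and 79.6 CPM at 24 h. In WT cells all 24 h values lay above those at 0 h (log2 fold change 0.51, SE 0.14, adjusted p = 0.00208), a call lost without WT mouse 3 (adjusted p = 0.0523). In Aim2-/- cells the 0 and 24 h groups overlapped and Eif2b2 was called lower at 6 h (log2 fold change -0.42, SE 0.14, adjusted p = 0.0129), a call lost without Aim2-/- mouse 4 (adjusted p = 0.0736).
Eif2b4 and Eif2b5 rose by 1.23 and 1.22 (log2) at 24 h in WT cells, on different schedules. WT libraries held Eif2b4 at 52.2, 64.3 and 64.1 CPM at 0 h, 55.4, 52.6 and 53.4 CPM at 3 h, 55.5, 64.1 and 62.5 CPM at 6 h and 132, 149.9 and 142 CPM at 24 h, and Aim2-/- libraries held it at 59.7, 60.4 and 66.5 CPM at 0 h, 51.97, 55.4 and 54.3 CPM at 3 h, 66.2, 64.2 and 66.3 CPM at 6 h and 125, 142 and 143 CPM at 24 h. WT libraries held Eif2b5 at 82.96, 92.8 and 96.2 CPM at 0 h, 106, 109.9 and 95.8 CPM at 3 h, 136, 145 and 139 CPM at 6 h and 206, 219.7 and 208 CPM at 24 h, and Aim2-/- libraries held it at 88.96, 91.8 and 93.04 CPM at 0 h, 94.3, 99.8 and 114 CPM at 3 h, 105, 124 and 125 CPM at 6 h and 177, 202 and 193 CPM at 24 h. In both genotypes Eif2b4 was within or near its 0 h range until 6 h, and Eif2b5 was already above it at 6 h in all 6 mice.
Through these unequal rises the subunit genes drew closer in level. The ratio of the highest to the lowest of the 5, in CPM per kb of the longest transcript, was 13.1 to 18.8 in WT libraries at 0 h, 4.84 to 6.44 at 3 h, 3.48 to 3.92 at 6 h and 3.34 to 3.72 at 24 h. In Aim2-/- libraries it was 14.9 to 18.2 at 0 h, 5.75 to 7.86 at 3 h, 3.66 to 4.64 at 6 h and 3.51 to 3.85 at 24 h. Within each genotype the ratios of the 4 times did not overlap between 0, 3 and 6 h, and in both the 6 and 24 h ratios lay close together. Per kb of all exons of a gene the ratio was larger, 20.5 to 27.7 at 0 h and 5.71 to 6.36 at 24 h in WT cells, with the same order of times. The same ratio over the 3 eIF2 subunits was 4.22 to 6.60 at 0 h and 4.65 to 5.48 at 24 h in WT cells, and over the 12 eIF3 subunits other than Eif3j1 and Eif3j2 it was 4.97 to 5.93 and 5.50 to 5.64.

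**Figure D2:**
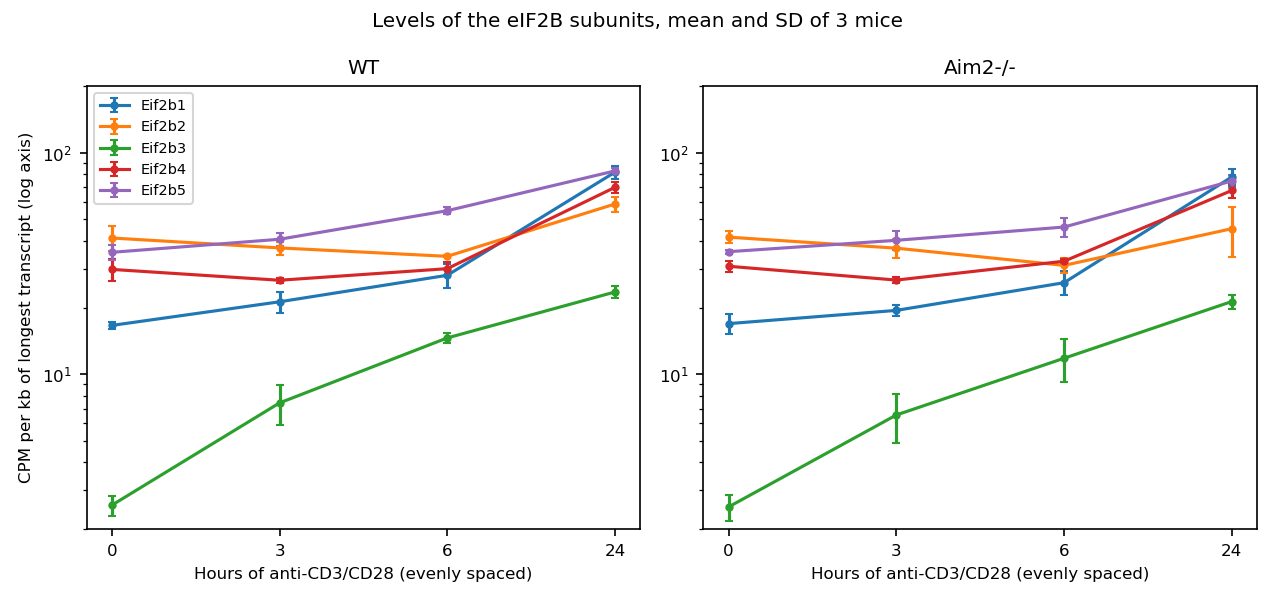
CPM per kb of the longest transcript (log axis) of the 5 eIF2B subunit genes at 0, 3, 6 and 24 h in WT and Aim2-/- cells, as means with the SD of 3 mice. Eif2b3 stays the lowest subunit throughout, but the gap to the highest closes from a ratio of 13.1 to 18.8 at 0 h to 3.34 to 3.72 at 24 h in WT cells.

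eIF3, the large scaffold on the small ribosomal subunit, rose broadly. In WT cells 4 of its 13 tested genes rose at 3 h, 10 rose and 1 fell at 6 h, and 12 rose and 0 fell at 24 h, with medians of 0.24, 0.77 and 1.35 (log2). In Aim2-/- cells 2 rose and 2 fell at 3 h, 8 rose at 6 h and 11 rose at 24 h, with medians of 0.17, 0.39 and 1.09. The largest rise at 24 h was that of Eif3b, a core subunit that binds Eif3g and Eif3i (log2 fold change 1.85, SE 0.15, adjusted p = 4.3e-10 in WT). The smallest were those of Eif3e and Eif3h at 0.34 and 0.26 (log2), both lost without WT mouse 3 or 4, and Eif3f was not called at -0.08. Eif3e, Eif3f and Eif3h belong to the ring of PCI and MPN domain subunits, and so do Eif3a, Eif3c, Eif3k, Eif3l and Eif3m, which rose by 0.86 to 1.48.
Eif3h had the highest level per kb of the longest transcript of all members in WT cells at 0 h. WT values of Eif3h were 301, 319 and 317 CPM at 0 h, 291, 294 and 273 CPM at 3 h, 279, 291 and 282 CPM at 6 h and 348, 382 and 388 CPM at 24 h. Aim2-/- values of Eif3h were 293, 304 and 344 CPM at 0 h, 251, 266 and 276 CPM at 3 h, 253, 288 and 309 CPM at 6 h and 327, 329 and 373 CPM at 24 h. The WT libraries at 24 h lay above those at 0 h by a small margin, and in Aim2-/- cells the 2 groups overlapped.
Eif3j1, the gene of the loosely bound j subunit, was the least abundant tested subunit per kb in WT cells at 0 h. For Eif3j1 the WT libraries gave 13.6, 9.56 and 9.28 CPM at 0 h, 14.8, 12.6 and 11.1 CPM at 3 h, 15.8, 22.7 and 20.7 CPM at 6 h and 27.1, 26.9 and 28.6 CPM at 24 h. For Eif3j1 the Aim2-/- libraries gave 13.4, 8.86 and 12.2 CPM at 0 h, 10.8, 12.5 and 18.3 CPM at 3 h, 15.7, 20.6 and 24.9 CPM at 6 h and 29.8, 21.5 and 30.3 CPM at 24 h. At 24 h it was above 0 h without overlap in both genotypes (log2 fold change 1.35, SE 0.22, adjusted p = 1.4e-05 in WT), while its paralog Eif3j2 stood at 0.514 CPM or less in every library. Both j genes share exons with another annotated gene on their strand, so their counts are less certain.

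The helicase group split between paralogs. Eif4a1, the main eIF4A gene of growing cells, rose and Eif4a2 fell in WT cells, and both calls were made under every alternative at 6 and 24 h. At 3 h the call of Eif4a2 was lost with library totals, with only the libraries compared and without WT mouse 1 or 3 (adjusted p up to 0.290), and that of Eif4a1 without WT mouse 3 (adjusted p = 0.0545). In WT cells Eif4a1 stood at 113, 119.7 and 111 CPM at 0 h, 178, 188 and 139 CPM at 3 h, 196, 246 and 219 CPM at 6 h and 357, 350.5 and 355 CPM at 24 h. Eif4a1 in Aim2-/- cells stood at 130.2, 115 and 129.6 CPM at 0 h, 134, 141 and 191 CPM at 3 h, 186, 199 and 257 CPM at 6 h and 371, 354 and 393 CPM at 24 h. By 24 h all values were above all earlier ones in both genotypes (log2 fold change 1.63, SE 0.14, adjusted p = 8.3e-10 in WT).
Eif4a2 had the highest level of the group in WT cells at 0 h per kb of the longest transcript, though not per kb of all exons. In WT cells Eif4a2 (chr16:23107444-23114136, plus strand) stood at 514, 434 and 424 CPM at 0 h, 341, 371 and 389 CPM at 3 h, 330.2, 320.3 and 312 CPM at 6 h and 301, 279 and 315 CPM at 24 h. Eif4a2 in Aim2-/- cells stood at 329, 382 and 367 CPM at 0 h, 321, 331 and 285 CPM at 3 h, 243, 285 and 274 CPM at 6 h and 315, 274 and 290.0 CPM at 24 h. WT cells at 6 and 24 h were below 0 h without overlap (log2 fold change -0.62, SE 0.09, adjusted p = 4.4e-06), and it was also called lower in Aim2-/- cells at 24 h (log2 fold change -0.30, SE 0.09, adjusted p = 0.00748). Without Aim2-/- mouse 2 or 4 that call was lost (adjusted p up to 0.116). The difference between the genotypes in this fall was not called (interaction 0.32, adjusted p = 0.328). Annotated small RNA genes overlap exons of Eif4a2 and Eif4a1 on the same strand, and Rfc4 overlaps Eif4a2 on the other. Eif4b and Eif4h, whose products stimulate eIF4A, rose by 0.92 and 0.88 (log2) at 24 h in WT cells, and Eif4a3, the helicase of the exon junction complex, rose by 1.23.

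Within the cap-binding complex the paralogs also differed. Eif4e, the gene of the cap-binding protein itself, was called higher at every time in both genotypes. In WT cells Eif4e (chr3:138526179-138559696, plus strand) stood at 38.5, 34.4 and 38.2 CPM at 0 h, 56.3, 54.5 and 44.95 CPM at 3 h, 86.8, 101 and 91.05 CPM at 6 h and 132, 129 and 121 CPM at 24 h. Eif4e in Aim2-/- cells stood at 47.99, 33.6 and 42.6 CPM at 0 h, 49.6, 50.2 and 72.1 CPM at 3 h, 66.5, 83.05 and 96.9 CPM at 6 h and 127, 122 and 124 CPM at 24 h. The 24 h libraries of both genotypes lay above all earlier ones, with a fold of 3.43 in WT cells (log2 fold change 1.78, SE 0.15, adjusted p = 8.3e-10). The calls of Eif4e at 3 h were lost without WT mouse 1 or 3 in WT cells (adjusted p up to 0.188), and without Aim2-/- mouse 2 or 4 or with only the libraries compared in Aim2-/- cells (adjusted p up to 0.198).
Eif4e2, whose product binds the cap weakly and is known as a repressor, rose at 24 h. WT libraries held Eif4e2 at 123, 123 and 122 CPM at 0 h, 129.7, 126 and 115 CPM at 3 h, 142, 136 and 138 CPM at 6 h and 178, 193 and 188 CPM at 24 h. Aim2-/- libraries held Eif4e2 at 113, 119 and 118 CPM at 0 h, 114, 110.1 and 115 CPM at 3 h, 108, 129 and 120.1 CPM at 6 h and 162, 180.1 and 174 CPM at 24 h. It left its 0 h range clearly at 24 h, by 0.60 (log2) in WT and 0.56 in Aim2-/- cells.
Eif4e3, an atypical cap-binding protein, fell. WT mice had Eif4e3 (chr6:99625135-99666771, minus strand) at 34.4, 44.1 and 38.8 CPM at 0 h, 17.8, 23.3 and 30.3 CPM at 3 h, 18.3, 32.7 and 37.5 CPM at 6 h and 11.96, 10.5 and 13.4 CPM at 24 h. Aim2-/- mice had Eif4e3 at 31.04, 26.4 and 36.1 CPM at 0 h, 20.1, 20.04 and 20.3 CPM at 3 h, 26.6, 32.3 and 27.6 CPM at 6 h and 16.6, 12.2 and 11.6 CPM at 24 h. It was called lower at 3 h, overlapped its 0 h range again at 6 h in both genotypes, and was lowest at 24 h (log2 fold change -1.71, SE 0.22, adjusted p = 5.8e-07 in WT and log2 fold change -1.21, SE 0.22, adjusted p = 4.9e-05 in Aim2-/- cells). At 3 h the call of Eif4e3 was lost without WT mouse 3 in WT cells (adjusted p = 0.141), and with any Aim2-/- mouse left out or with library totals in Aim2-/- cells (adjusted p up to 0.230). The mouse labelled WT 1 was the lowest WT library at 0, 3 and 6 h. An annotated gene on the same strand shares exons with Eif4e3.

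The 3 eIF4G scaffolds had 3 time courses. Eif4g1, the main scaffold, climbed throughout in WT cells. In WT cells Eif4g1 (chr16:20668313-20692884, plus strand) stood at 492, 461 and 556 CPM at 0 h, 641, 758 and 652 CPM at 3 h, 967, 920.5 and 873 CPM at 6 h and 1290, 1446 and 1200 CPM at 24 h. Eif4g1 in Aim2-/- cells stood at 489.7, 509 and 466 CPM at 0 h, 540.4, 700.5 and 659.8 CPM at 3 h, 526, 731 and 606 CPM at 6 h and 794, 1310 and 958 CPM at 24 h. WT values of each time lay above all those of the time before, although the WT call at 3 h was lost without any one WT mouse or without Aim2-/- mouse 4 (adjusted p up to 0.373), and the Aim2-/- values overlapped between 3 and 6 h and were not called at either time (log2 fold change 0.35, SE 0.15, adjusted p = 0.0579 at 6 h).
Eif4g2, which lacks the site for eIF4E and serves cap-independent initiation, had the highest level per kb of this group in WT cells at 0 h. In WT cells Eif4g2 stood at 1275, 1028 and 1183 CPM at 0 h, 1026, 1073 and 1042 CPM at 3 h, 1294, 1180 and 1186 CPM at 6 h and 1806, 2084 and 1878 CPM at 24 h. Eif4g2 in Aim2-/- cells stood at 1090, 1140 and 1113 CPM at 0 h, 933, 1043 and 883 CPM at 3 h, 826, 1044 and 920.3 CPM at 6 h and 1371, 1841 and 1466 CPM at 24 h. Against 0 h it was called at 24 h alone, at 0.73 (log2) in WT and 0.48 in Aim2-/- cells.
Eif4g3 peaked early. In WT cells Eif4g3 stood at 196, 223 and 215 CPM at 0 h, 305, 370.1 and 334 CPM at 3 h, 379, 414 and 384 CPM at 6 h and 261, 272 and 281 CPM at 24 h. Eif4g3 in Aim2-/- cells stood at 191, 198 and 188 CPM at 0 h, 304, 326 and 344 CPM at 3 h, 313, 322 and 339.7 CPM at 6 h and 278, 289.9 and 251 CPM at 24 h. It rose by 3 h in both genotypes and fell again between 6 and 24 h (log2 fold change -0.53, SE 0.08, adjusted p = 9.9e-06 in WT and log2 fold change -0.25, SE 0.08, adjusted p = 0.0115 in Aim2-/- cells), and at 24 h was still above 0 h. It was the 1 member with its highest mean at 6 h in both genotypes.

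The eIF4E-binding proteins, which hold eIF4E away from eIF4G until mTOR phosphorylates them, went in 3 directions. Eif4ebp1 rose late. In WT cells Eif4ebp1 (chr8:27260329-27276674, plus strand) stood at 7.301, 7.86 and 6.95 CPM at 0 h, 8.84, 7.13 and 6.08 CPM at 3 h, 10.8, 10.1 and 9.3 CPM at 6 h and 38.1, 37 and 43.3 CPM at 24 h. Eif4ebp1 in Aim2-/- cells stood at 13.4, 8.37 and 10.8 CPM at 0 h, 11.7, 8.12 and 11.7 CPM at 3 h, 18.9, 14.7 and 18.5 CPM at 6 h and 33.5, 35.4 and 41.9 CPM at 24 h. It was called higher at 6 h in both genotypes, by 0.45 in WT and 0.68 in Aim2-/- cells. The WT call was lost in 8 of 13 alternatives. These were any WT mouse or Aim2-/- mouse 4 left out, RLE factors, DESeq2, limma-voom and no filter. All 24 h libraries lay far above the rest (log2 fold change 2.42, SE 0.18, adjusted p = 1.2e-10).
Eif4ebp2 was the most abundant of the 3 genes per kb in WT cells at 0 h and was not called in any comparison with 0 h. WT libraries held Eif4ebp2 at 397, 499 and 539 CPM at 0 h, 339.6, 388 and 426 CPM at 3 h, 392, 376 and 397 CPM at 6 h and 447, 436 and 409.6 CPM at 24 h. Aim2-/- libraries held Eif4ebp2 at 338, 416 and 389 CPM at 0 h, 319.5, 380.2 and 302 CPM at 3 h, 309, 380.5 and 295 CPM at 6 h and 320.4, 443 and 335 CPM at 24 h. The groups overlapped between 0 and 24 h in both genotypes.
Eif4ebp3 was near the floor of detection. WT libraries held Eif4ebp3 at 1.2, 0.879 and 0.862 CPM at 0 h, 0.833, 0.661 and 0.561 CPM at 3 h, 0.31, 0.389 and 0.292 CPM at 6 h and 0.0507, 0.308 and 0.308 CPM at 24 h. Aim2-/- libraries held Eif4ebp3 at 0.291, 0.936 and 0.1969 CPM at 0 h, 0.645, 0.917 and 0.989 CPM at 3 h, 0.571, 0.185 and 0.241 CPM at 6 h and 0.245, 0.3023 and 0.462 CPM at 24 h. The lowest value, in the mouse labelled WT 1 at 24 h, was 1 count. Eif4ebp3 fell in WT cells (log2 fold change -2.11, SE 0.56, adjusted p = 0.00211), a call lost without the mouse labelled WT 1 (adjusted p = 0.0578), and was not called in Aim2-/- cells. An annotated gene on the same strand shares its exons. The fourth gene of the group, Eif4enif1, which encodes the eIF4E transporter of P-bodies, rose by 1.91 and 1.70 (log2) at 24 h in WT and Aim2-/- cells.

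**Figure D3:**
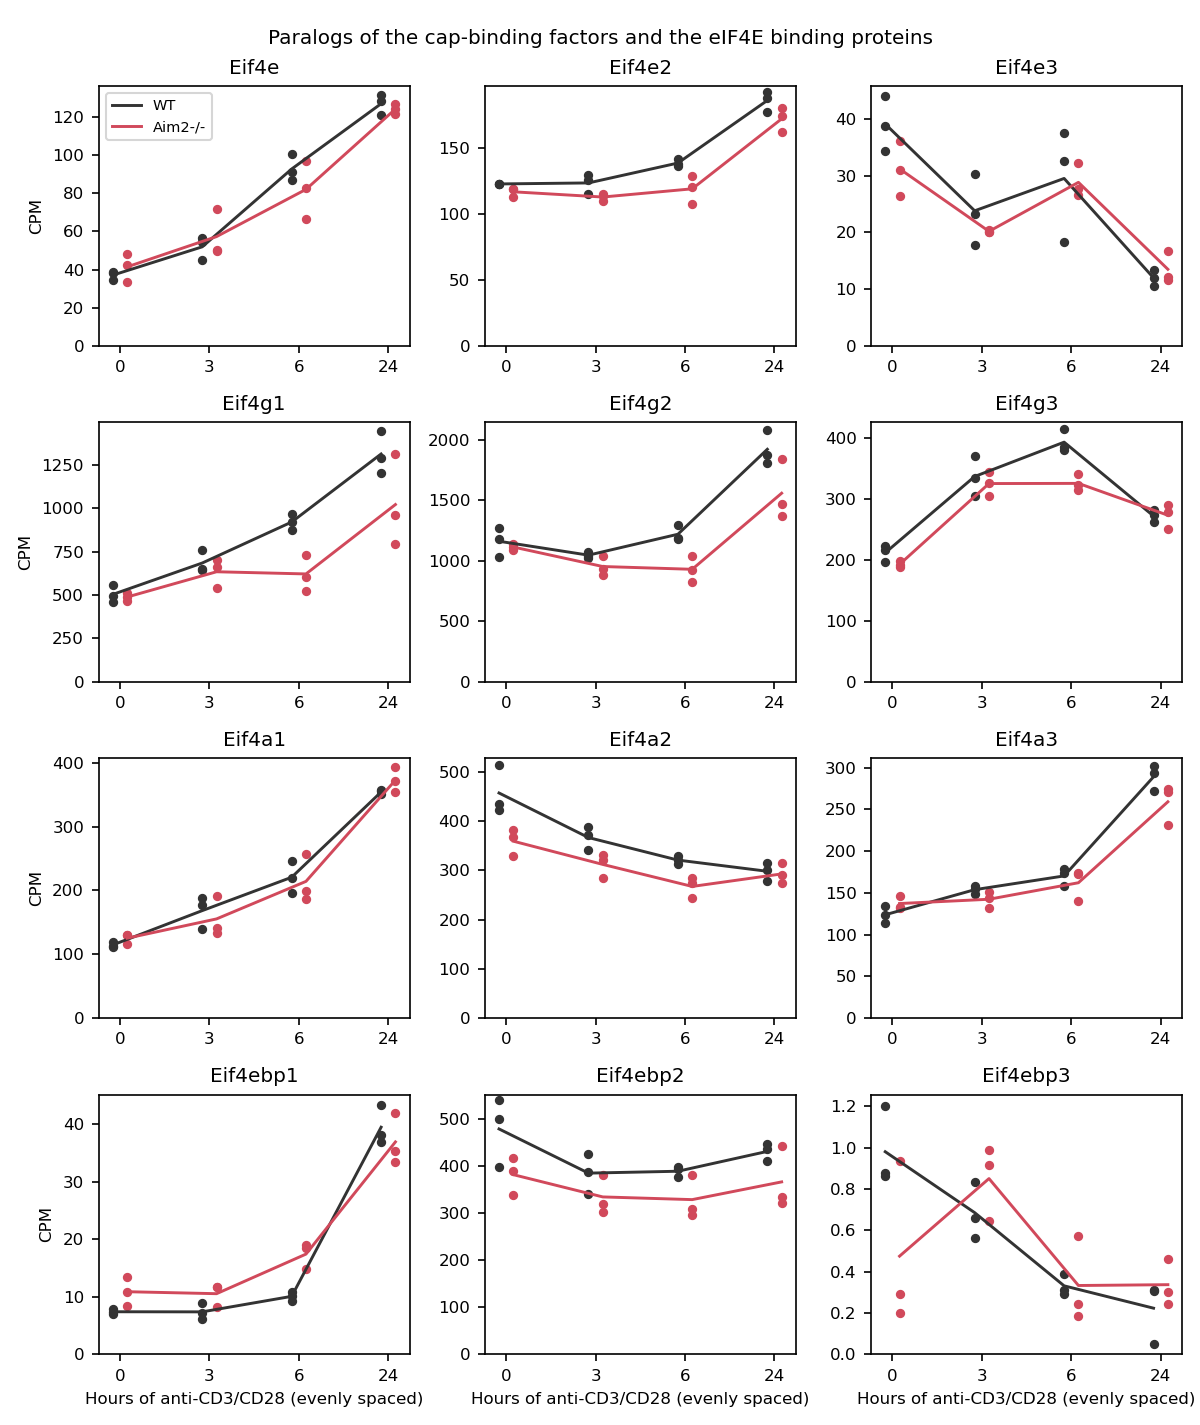
CPM of 12 initiation factor genes at 0, 3, 6 and 24 h, 1 panel per gene with its own axis from 0, with 1 point per mouse and a line through the means of 3 WT (dark) and 3 Aim2-/- mice (red). Eif4e and Eif4a1 climb, Eif4e3 and Eif4a2 fall, Eif4g3 peaks before 24 h and Eif4ebp1 stays low until 6 h.

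Among the factors of subunit joining and later steps, Eif5a rose the most. Its product, the only protein known to carry hypusine, helps the ribosome through slow peptide bonds. In WT cells Eif5a (chr11:69916714-69921958, minus strand) stood at 311, 345 and 314 CPM at 0 h, 595, 619.8 and 502 CPM at 3 h, 1123, 1406 and 1254 CPM at 6 h and 2267, 2338 and 2195 CPM at 24 h. Eif5a in Aim2-/- cells stood at 401, 346 and 439 CPM at 0 h, 484, 547 and 726 CPM at 3 h, 885, 1292 and 1266 CPM at 6 h and 1881, 2312 and 2210 CPM at 24 h. All stimulated libraries exceeded all unstimulated ones, and the values of each time lay above all those of the time before (log2 fold change 2.81, SE 0.16, adjusted p = 2.5e-12 in WT).
Per kb of the longest transcript, Eif5a went from the second highest level of the members at 0 h, 225 ± 13.0 CPM per kb (SD, n = 3) in WT cells, to the highest at 24 h, 1577 ± 49.6, followed by Eif3g at 407 ± 21.1. At 0 h Eif3h led with 241 ± 7.53 and Eif1 followed Eif5a with 223 ± 4.64, and Eif5a and Eif1 differed by less than the SD of Eif5a. Per kb of all exons Eif3g ranked 6 at 24 h (226), and Eif5a ranked 4 at 0 h (136) and 1 at 24 h (953.5). The paralog of Eif5a, Eif5a2, was scarce. WT mice had Eif5a2 at 16, 14.1 and 13.9 CPM at 0 h, 14.2, 12.2 and 14.5 CPM at 3 h, 16.3, 17.3 and 18.1 CPM at 6 h and 18.7, 20.9 and 20.4 CPM at 24 h. Aim2-/- mice had Eif5a2 at 13.5, 12.9 and 12.01 CPM at 0 h, 13.1, 14.8 and 10.6 CPM at 3 h, 12.5, 17.01 and 12.7 CPM at 6 h and 13.4, 17.7 and 12.1 CPM at 24 h. The WT values at 24 h lay above those at 0 h by a narrow margin (log2 fold change 0.45), a call lost without WT mouse 3 or 4, and in Aim2-/- cells the groups overlapped. Eif5b, the GTPase of subunit joining, rose by 0.95 and 0.83 (log2) at 24 h in WT and Aim2-/- cells, and Eif6, which keeps free large subunits apart from small ones, rose by 1.32 and 0.97.

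**Figure D4:**
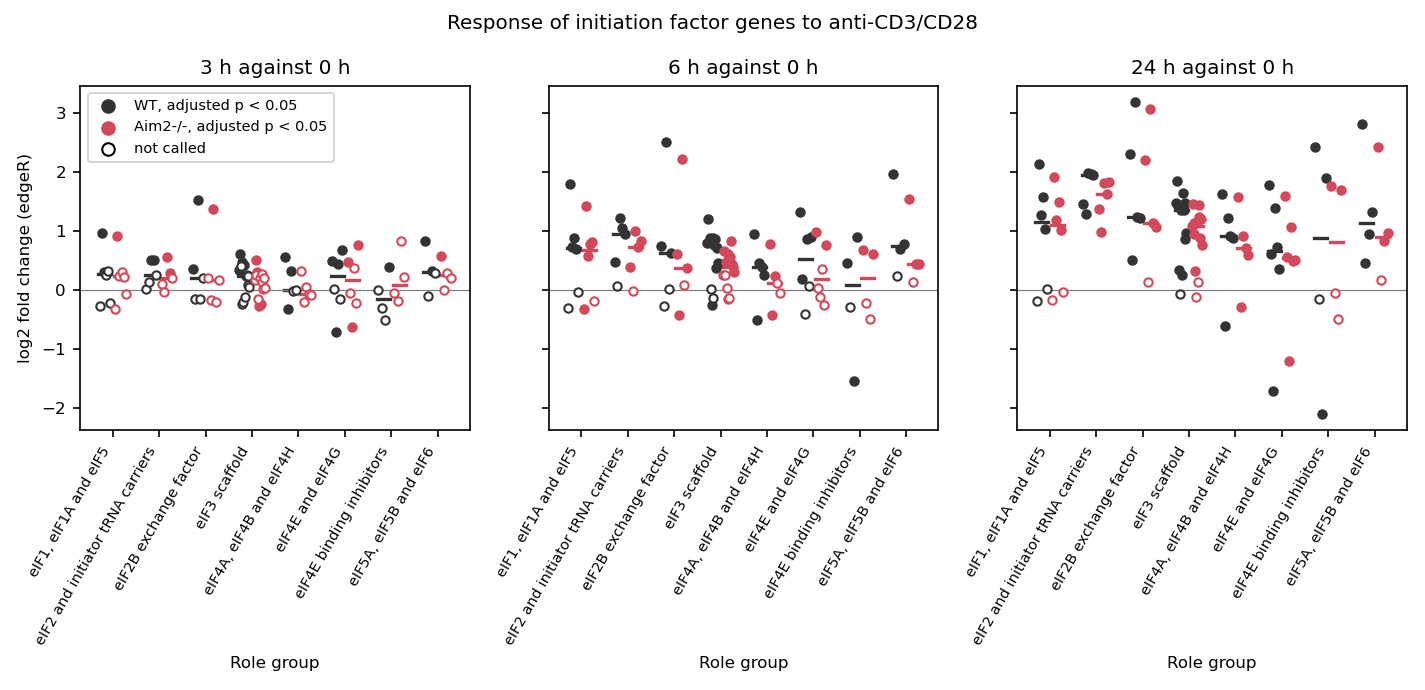
Log2 fold change of each tested member at 3, 6 and 24 h against 0 h in WT (dark) and Aim2-/- cells (red), grouped by role. Filled points passed an adjusted p of 0.05, open points did not, and bars are group medians, which at 24 h reach 1.95 (WT) and 1.63 (Aim2-/-) for the eIF2 group.

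The steps between times showed when the rise took place. From 3 to 6 h 29 members rose and 0 fell in WT cells, against 14.2% and 11.5% of all genes, and 19 rose and 0 fell in Aim2-/- cells, against 13.4% and 9.89%. Without WT mouse 3 or WT mouse 4 the WT count was 13 or 11, and without Aim2-/- mouse 2 or 4 the Aim2-/- count was 7 or 12. For these fits with a mouse left out the share of all genes called is not given. From 6 to 24 h 37 rose and 2 fell in both genotypes, against 29.6% and 28% of all genes in WT and 27.4% and 27% in Aim2-/- cells. The 2 that fell were Eif4e3 and Eif4g3 in both. Taken mouse by mouse, 22, 30 and 39 of the 48 members were higher in all 6 mice at 3, 6 and 24 h than at 0 h, and 7, 6 and 4 were lower in all 6. The count by mouse was not made over all genes, so it does not show what is particular to the members.

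A list of 44 related genes of translation, written from general knowledge, was read beside the members. In WT cells 11 rose and 11 fell at 3 h, 18 and 9 at 6 h and 23 and 13 at 24 h, and in Aim2-/- cells 10 and 13, 14 and 11, and 20 and 13. All 7 other initiation cofactors and both hypusine enzymes, Dhps and Dohh, which modify eIF5A, rose at 24 h in WT cells, by 1.02 and 1.51 (log2) for the enzymes. The largest rises were those of Eef1e1 (2.90), which encodes a partner of the tRNA synthetase complex, Pabpc4 (2.24), a poly(A)-binding protein gene, Gspt1 (1.74), a release factor gene, and Abce1 (1.65), a ribosome recycling gene. The largest falls were those of Ppp1r15a (-2.97), which encodes the stress-induced subunit of the eIF2 phosphatase, Eif2ak3 (-2.82), the eIF2 kinase of the endoplasmic reticulum, Gigyf1 (-2.25), a partner of Eif4e2, and Mknk2 (-1.67), a kinase of eIF4E.

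The next question was whether Aim2-/- cells differed from WT cells. At 0 h 0 members were higher and 1 was lower, against 3.24% and 1.99% of all genes (4 members at an unadjusted p under 0.05). The 1 member was Eif4a2 (log2 fold change -0.35, SE 0.09, adjusted p = 0.0357), with all 3 Aim2-/- values below all WT values and the mouse labelled WT 1 the highest. Of the 6 fits that left out a mouse it was called in the one without Aim2-/- mouse 2 alone, and so not without the mouse labelled WT 1. At 3 h 0 members were called, against 0.254% of all genes higher and 0.0392% lower (2 members at an unadjusted p under 0.05).

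At 6 h the members leaned lower in Aim2-/- cells. Of the 48, 10 were lower and 1 was higher, against 7.01% and 8.78% of all genes. The log2 fold change was below 0 in 38 members, against 44.9% of all genes, and 22 members had all Aim2-/- libraries below all WT libraries, against 17% of all genes. The 10 lower members were 4 genes of the cap complex (Eif4g1, Eif4g2, Eif4g3 and Eif4e2), 3 of eIF3 (Eif3a, Eif3b and Eif3c), and Eif4b, Eif5 and Eif5b. In the eIF2 group and in eIF2B 0 of 5 genes each were called. With 7.01% of all genes lower, 0 of 5 does not set a group apart. The median log2 fold change was -0.20 in the eIF2 group and -0.14 in eIF2B, against -0.19 in eIF3.
Eif3a, the largest eIF3 subunit, gave the smallest adjusted p among the lower genes. WT libraries held Eif3a (chr19:60761117-60790658, minus strand) at 452, 407 and 460.2 CPM at 0 h, 561, 595 and 508 CPM at 3 h, 736, 777 and 772 CPM at 6 h and 1152, 1322 and 1203 CPM at 24 h. Aim2-/- libraries held Eif3a at 462, 455 and 431 CPM at 0 h, 451, 539 and 525 CPM at 3 h, 455, 612 and 536 CPM at 6 h and 799, 1133 and 938 CPM at 24 h. At 0 h the genotypes overlapped, and at 6 h the Aim2-/- values were lower without overlap, mouse 1 being the lowest (log2 fold change -0.51, SE 0.12, adjusted p = 0.0122).
Eif3c behaved alike in level. WT libraries held Eif3c at 296, 285 and 342 CPM at 0 h, 387, 426 and 407 CPM at 3 h, 603, 523 and 503 CPM at 6 h and 753, 896 and 818 CPM at 24 h. Aim2-/- libraries held Eif3c at 307, 334 and 290.1 CPM at 0 h, 340.3, 427 and 344 CPM at 3 h, 301, 432 and 372 CPM at 6 h and 463, 786 and 551 CPM at 24 h. At 6 h all WT values were again above all Aim2-/- values, with mouse 1 the lowest (log2 fold change -0.56, SE 0.16, adjusted p = 0.0246).
The eIF4G genes, whose values stand above, were also apart at 6 h. Eif4g1 was at 873 to 967 CPM in WT and 526 to 731 CPM in Aim2-/- cells (log2 fold change -0.57, SE 0.15, adjusted p = 0.0198). Eif4g2 (log2 fold change -0.39, SE 0.11, adjusted p = 0.0269) and Eif4g3 (log2 fold change -0.27, SE 0.08, adjusted p = 0.0306) had smaller differences, again without overlap. For Eif4g1, Eif4g2 and Eif4g3 Aim2-/- mouse 1 was the lowest library at 6 h.
Eif4ebp1 was the 1 member higher in Aim2-/- cells at 6 h, at 14.7 to 18.9 CPM against 9.30 to 10.8 CPM (log2 fold change 0.79, SE 0.17, adjusted p = 0.0101). Its Aim2-/- values were also above the WT values at 0 h without overlap, where it was not called (adjusted p = 0.0652), and overlapped them at 24 h. The other called genes had log2 fold changes of -0.48 (Eif3b), -0.36 (Eif5b), -0.34 (Eif4b), -0.33 (Eif5) and -0.22 (Eif4e2), with adjusted p from 0.0314 to 0.0382.

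These calls at 6 h were sensitive to single mice. The count was 4 without the mouse labelled WT 1, 0 without WT mouse 3, WT mouse 4 or Aim2-/- mouse 4, 1 without Aim2-/- mouse 1 and 23 without Aim2-/- mouse 2, and 0 when the model also held terms for marker scores, the mean log2 CPM of erythroid, myeloid and B cell genes. Of the 11 calls 0 held in every alternative, and 0 changed sign. The shares of all genes called in these other fits are not given, so the counts describe stability only. At 6 h the 7 myeloid markers, all detected, summed to 26.9 to 49.9 CPM in WT and 63.8 to 204 CPM in Aim2-/- libraries, and the 7 B cell markers, all detected, to 7.79 to 12.8 against 17.2 to 48.8 CPM. The 6 erythroid markers, all detected, summed to 8.23 to 67.9 against 23.0 to 518 CPM, with overlap. Since the myeloid and B cell sums did not overlap, the fit with marker terms cannot tell genotype and cell mixture apart. The activation gene Myc stood at 628, 824 and 720 CPM in WT and 356, 538 and 545 CPM in Aim2-/- cells. Il2ra, another activation gene, was also lower, at 948, 852 and 882 against 547, 666 and 685 CPM. Cd69 stood at 466.5, 657 and 572 against 351, 401 and 488 CPM, with overlap. The median log2 fold change at 6 h was -0.15 for the 10 members with CACGTG and -0.24 for the 28 without. The part of Myc or of the state of activation in the difference was not tested.
Transcript length also moved with it. The longest transcripts of the 10 lower members had a median of 4588 bases, against 2554 bases for the 37 members not called. With all genes tested split into 4 equal bins of length, the median log2 fold change at 6 h went from 0.20 in the bin of shortest transcripts to -0.12 in the bin of longest, and the members' medians went from -0.07 to -0.28. With the trend of each library with GC content and length removed, a fit chosen after seeing the data, 7 members were lower and 1 was higher. They were Eif3a, Eif3b, Eif3c, Eif4b, Eif4g1 and Eif4ebp1 of the first list and Eif2b5 and Eif3l beside them. The share of all genes called in that fit is not given.

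**Figure D5:**
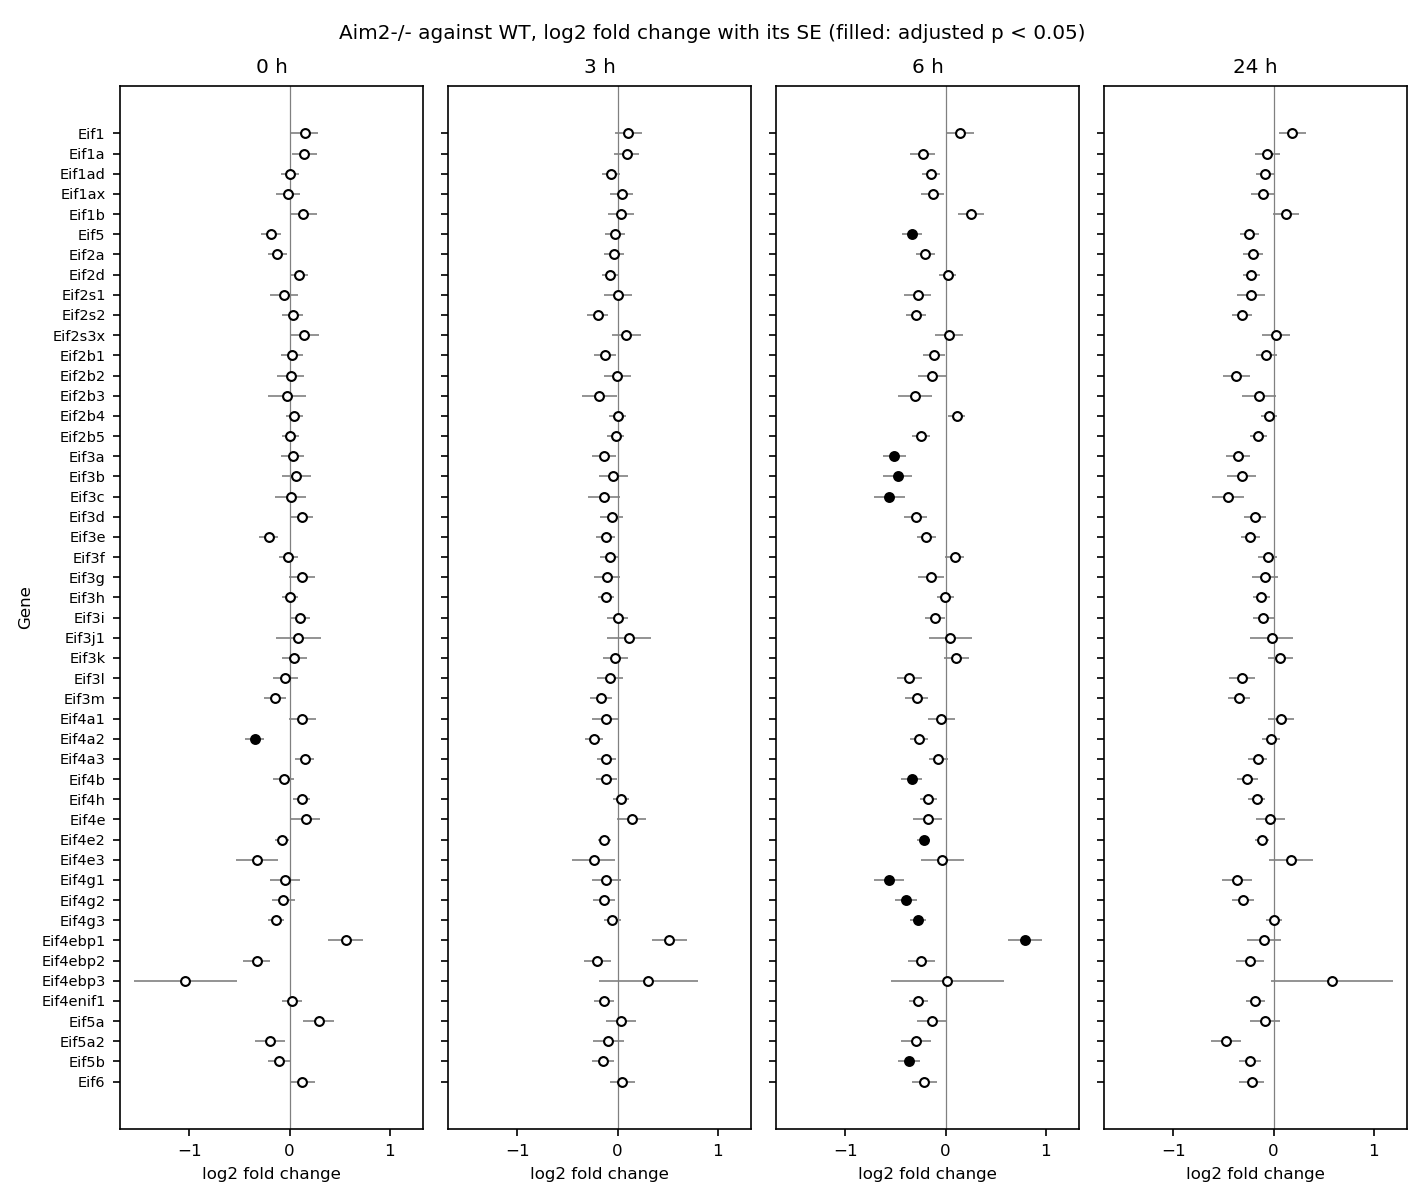
Log2 fold change of Aim2-/- against WT cells with its SE for each of the 48 tested members at 0, 3, 6 and 24 h, 3 mice per genotype. Filled points have an adjusted p under 0.05, and 11 of the 12 filled points lie in the panel for 6 h, the other being Eif4a2 at 0 h.

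At 24 h 0 members were called higher or lower, against 0.659% and 0.00653% of all genes, and 16 had an unadjusted p under 0.05. The log2 fold change was below 0 in 40 of 48 members, against 49% of all genes, and 10 members had no overlap with Aim2-/- lower, against 10.2%. Without the Aim2-/- mouse 2, which lay closest to the WT mice in genes such as Eif3a and Eif4g1, 16 members were called lower. In that fit 46.3% of all genes called were higher, against 99% in the main fit, so that most calls among all genes were then lower as well. With DESeq2 4 were called, all lower, and without the mouse labelled WT 1 edgeR called 0. The shares of all genes called in these other fits are not given.

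The difference in response between the genotypes was tested as an interaction. In the model without mice 0 members were called at 3, 6 or 24 h, against 0%, 0.0261% and 0% of all genes, with 0, 11 and 8 members at an unadjusted p under 0.05. Since the 4 libraries of a mouse are paired, the fit with each mouse as a block is given beside it. It called 5 members at 6 h, all with a smaller response in Aim2-/- cells, among 4.68% of all genes. These were Eif3a (difference of log2 fold changes -0.56, adjusted p = 0.0195), Eif3c (-0.59, adjusted p = 0.0291), Eif3b (-0.57, adjusted p = 0.0298), Eif3d (-0.43, adjusted p = 0.0404) and Eif4g1 (-0.54, adjusted p = 0.0425). At 3 and 24 h it called 0. With a mouse left out as well, a fit chosen after seeing the data, it called 0 to 8 at 6 h. The count was 1 without the mouse labelled WT 1, which was Eif3a (-0.60, adjusted p = 0.0336), 5 without WT mouse 4, 8 without Aim2-/- mouse 2, and 0 without WT mouse 3 or Aim2-/- mouse 1 or 4. At 24 h it called 11 without Aim2-/- mouse 2 and 0 without any of the others. The shares of all genes called in these fits with a mouse left out are not given. The responses at 6 h themselves were 0.79 and 0.25 (log2) for Eif3a, 0.82 and 0.25 for Eif3c, 1.20 and 0.65 for Eif3b, 0.89 and 0.47 for Eif3d, which is the cap-binding subunit of eIF3, and 0.87 and 0.35 for Eif4g1, in WT and Aim2-/- cells.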

How the data were processed

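The deposited table held raw read counts per gene for 24 libraries, which the authors made from stranded mRNA libraries. The submitters' processing notes name STAR, DESeq2, edgeR and the build GRCm38, and whether the counting used strand is not given in the sources used here. Gene types, positions and transcript lengths were taken from GENCODE M21, which matched 54409 of 54446 identifiers. Members and gene lists were chosen with earlier results of these data known.

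Genes were kept by filterByExpr with a minimum count of 10, scaled by TMM and tested in R 4.3.3 with the quasi-likelihood F test of edgeR 4.0.16, in 1 model with a mean for each of the 8 groups and Benjamini-Hochberg adjustment over all 15325 genes tested at a threshold of 0.05. The biological coefficient of variation was 18.6%. An interaction is the log2 fold change from 0 h in Aim2-/- cells minus that in WT cells. The code was tested on simulated data. CPM values are counts per 1000000 on TMM-scaled library sizes. CPM per kb divides by the longest annotated transcript, or by all exons of the gene where stated.

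Values in every library are given for the 4 members with the largest called changes in each direction at 24 h in WT cells, for up to 6 members called in each genotype comparison, for the member with the highest level per kb of each role group, and for the paralog sets and eIF2B subunits. Alternatives were RLE factors, library totals, DESeq2 1.42.0, limma-voom (limma 3.58.1), no filter, only the libraries compared, mouse or replicate number as a block, marker scores as terms, each mouse left out and, chosen after seeing the data, removal of each library's GC and length trend and the mouse block with each mouse left out. The 4 libraries labelled with one mouse are paired: their deviations from the group means correlated at 0.139 to 0.567 in all 36 pairs, against -0.432 to 0.0742 in 72 pairs of different mice.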

Additional observations from a re-analysis of the deposited data

Results flagged for a closer look

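With each mouse as a block, the response at 6 h differed between the genotypes by the interaction test for 5 members, where the difference is the log2 fold change in Aim2-/- cells minus that in WT cells. It was -0.56 for Eif3a, -0.59 for Eif3c, -0.57 for Eif3b, -0.43 for Eif3d and -0.54 for Eif4g1. In the model without the block their adjusted p ranged from 0.167 to 0.285. Without the mouse labelled WT 1 the blocked fit called Eif3a alone (-0.60, adjusted p = 0.0336).

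With the block and the GC and length trend of each library removed, a fit chosen after seeing the data, 8 members differed at 6 h. The differences were -0.51 for Eif3a, -0.59 for Eif3c, -0.60 for Eif3b, -0.47 for Eif3d, -0.46 for Eif4g1, -0.37 for Eif3l, -0.48 for Eif1a, the gene of the scanning factor eIF1A, and -0.50 for Eif5a. At 24 h the same fit gave 1 member, Eif4a3, with a difference of -0.32. The shares of all genes called in that fit are not given, so these counts show no trait of the members.

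Eif4g2 went opposite ways from 0 to 6 h in the genotypes when taken mouse by mouse on TMM-scaled values, and not with RLE factors. Its change in log2 CPM was 0.0213, 0.199 and 0.00365 in WT mice 1, 3 and 4 and -0.400, -0.127 and -0.274 in Aim2-/- mice 1, 2 and 4. With RLE factors the WT changes were -0.0209, 0.161 and -0.0613, so that 2 of the 3 turned sign. The interaction of -0.33 was not called, with an adjusted p of 0.371 in the model without the block and 0.114 with it (edgeR quasi-likelihood test).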

How the results depend on the processing

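Of the 11 members called between the genotypes at 6 h, 0 were called under every alternative. The count was 18 with DESeq2, 3 with only the libraries compared, 21 with the replicate number as a block and 0 with marker scores as terms, and ranged from 0 to 23 with a mouse left out. At 0 h the 1 call became 2 with DESeq2, 0 with library totals, with only the libraries compared, with marker scores or with the GC and length trend removed, 4 with the number as a block and 0 to 4 with a mouse left out. At 3 h the 0 calls became 2 with the number as a block and 0 to 1 with a mouse left out, and at 24 h they became 4 with DESeq2, 1 without a filter, 16 with the number as a block and 0 to 16 with a mouse left out. Numbers shared between genotypes mark different mice, whose deviations correlated at -0.165 to 0.268 over 8 pairs, with a median of 0.094. The labels do not say whether mice with the same number were handled together, and this was not tested. For the interaction at 6 h the 0 calls became 5 with each mouse as a block and 8 with the GC and length trend removed as well, which gave 1 at 24 h. The block with a mouse left out, also chosen after seeing the data, gave 0 to 8 at 6 h and 0 to 11 at 24 h, where the 11 came without Aim2-/- mouse 2. For 3 against 0 h the mouse block gave 32 calls in WT and 22 in Aim2-/- cells, a mouse left out gave 6 to 27 and 5 to 14, and in Aim2-/- cells library totals gave 21 and only the libraries compared 7. From 3 to 6 h a mouse left out gave 11 to 31 calls in WT and 7 to 19 in Aim2-/- cells, where only the libraries compared gave 1. The mouse block changed the count of no other comparison by over 1.5 times. Library totals moved the split of all genes called towards higher, which was 49.6% and became 64.9% for WT cells at 3 h, 52.4% and 69.3% for Aim2-/- cells at 3 h and 55.6% and 64.9% for Aim2-/- cells at 6 h. At 24 h against 0 h 39 of 44 calls in WT and 38 of 40 in Aim2-/- cells were made under every alternative, and 0 calls of any comparison with 0 h or between genotypes changed sign. The causes of these shifts were not tested. Counts under an alternative, here and above, are given without the share of all genes called in that fit unless it is printed beside them. They describe how stable the calls were and are no trait of the members. With 3 mice per genotype, small differences and genes near the floor, such as Eif4ebp3, were not resolved.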
